A study of Mus musculus with 4 samples.

Results

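The glycolysis and hypoxia genes described here are 31 genes taken by symbol, of 33448 symbols listed in the series. They fall into 15 enzymes that carry glucose to pyruvate, 8 genes of glucose uptake, flux control and lactate handling, and 8 genes of the response to low oxygen. Their levels were set side by side, class by class, for mice whose blood cells lack S100a8 and for control mice, in bone marrow and in tumors. The KO mice carried floxed S100a8 alleles with Vav-Cre (S100a8fl/flVav-Cre+/-), a Cre recombinase active in blood-forming cells and so in every blood lineage and not only in neutrophils. The WT mice carried the same floxed alleles without Cre (S100a8fl/flVav-Cre-/-), and neither group was treated. CD45+ cells, that is leukocytes, came from bone marrow of mice without tumors or from LLC tumors, a transplanted lung carcinoma of mice. A library pools cells of 3 mice and is the only one of its group, 4 in all, so no difference below has a replicate or a test. The age of the mice, the time of tumor growth and tumor size are not given in the labels.

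Glycolysis splits glucose into pyruvate in the cytosol, with a small gain of ATP that needs no oxygen. Hexokinases (Hk1, Hk2, Hk3) trap glucose in the cell, phosphofructokinases (Pfkl, Pfkp, Pfkm) set the committed step, and Gapdh, Pgk1, Pgam1, Eno1 and Pkm carry out the lower steps. When oxygen is low, the prolyl hydroxylases that mark the transcription factor subunit HIF-1 alpha (gene Hif1a) for destruction slow down, and HIF-1 then raises many glycolytic genes together with genes such as Vegfa, a growth factor for blood vessels. In tumor macrophages and neutrophils both low oxygen and inflammatory signals are known to engage this program, and HIF-1 alpha protein is set mostly by its turnover, which RNA counts do not show.

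The bone marrow libraries held 11070 KO and 8126 WT barcodes and the tumor libraries 11836 KO and 12027 WT barcodes, with 32906493 to 111214201 UMIs each, and 7591 to 10507 cells each were kept. A UMI tags 1 captured RNA molecule. S100a8 itself gave 7 UMIs in the KO bone marrow library against 2301866 in WT, and 85 in the KO tumor library against 14244 in WT, so that the genotype labels held in both tissues. Levels are UMIs of a gene per 1000000 UMIs of its class (CPM), and the total leaves out S100a8, S100a9 and the mitochondrial, ribosomal protein and hemoglobin genes. A ratio is the KO level over the WT level, with a 95% interval in parentheses that covers counting error only and leaves out the spread between mice. A gene was measured in a class with at least 50 UMIs over both libraries, and a 1.5-fold difference either way was counted. Cell classes were rebuilt from marker genes and are called "-like" for that reason; 9 tumor classes and 11 bone marrow classes had at least 100 cells in each library and were compared. The KO and WT libraries of each tissue share 33 barcodes. Cells were not followed individually, so a change in the mix of states within a class and a change in every cell of it cannot be told apart.

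The 8 hypoxia genes were read first by role. Hif1a (chromosome 12, 73901375 to 73947530, plus strand of GRCm38, GENCODE M21) encodes the regulated subunit itself. Egln3 (chromosome 12, 54178981 to 54203860, minus strand) encodes a prolyl hydroxylase that acts on it and is itself induced by HIF-1. The other 6 are known targets: Vegfa (chromosome 17, 46016993 to 46032369, minus strand), the pyruvate dehydrogenase kinase gene Pdk1 (chromosome 2, 71873224 to 71903858, plus strand), the mitophagy receptor gene Bnip3 (chromosome 7, 138890836 to 138909519, minus strand), the oxidoreductase gene Ero1l (chromosome 14, 45283087 to 45318771, minus strand), the mTORC1 inhibitor gene Ddit4 (chromosome 10, 59949669 to 59951834, minus strand) and the peptide hormone gene Adm (chromosome 7, 110627661 to 110629820, plus strand). All 8 are protein-coding in that annotation. Adm was hardly present: it was measured in 2 of the 9 tumor classes and in 0 of the 11 bone marrow classes.

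HIF-1 is known to bind a short core that reads ACGTG or GCGTG, and the promoters of the members were searched for both on either strand, in the 250 bases before each start in the RefSeq table for GRCm38.p6. The palindrome CACGTG, which other factors also bind, holds the first core on each strand. Of the 31 members 29 were in that table, and 27 of these (93.1%) held at least 1 match, against 11226 of all 27025 genes (41.5%). Counted by window, 35 of 43 (81.4%) held a match, against 12679 of all 32851 (38.6%). The list was chosen to include known HIF-1 targets, so a higher share is no independent finding. The members' 43 windows had a median GC content of 60.4% and all 32851 windows 52.4%, a difference whose part in the share was not tested. By list, 13 of 15 enzymes, 7 of 7 handling genes and 7 of 7 hypoxia genes held a match. Shown are the windows of 4 members that were higher in most tumor classes of the KO library, Bnip3, Ddit4, Egln3 and the glucose transporter gene Slc2a1, 5′ to 3′ up to the base before the start, with the matches in capitals.
Bnip3 (chr7:138909507-138909756, minus strand): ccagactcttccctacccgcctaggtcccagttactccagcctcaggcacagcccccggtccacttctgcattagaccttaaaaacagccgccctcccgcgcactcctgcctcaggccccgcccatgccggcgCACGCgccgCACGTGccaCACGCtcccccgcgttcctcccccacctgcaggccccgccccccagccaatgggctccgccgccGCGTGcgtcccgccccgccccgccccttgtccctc
Ddit4 (chr10:59951771-59952020, minus strand): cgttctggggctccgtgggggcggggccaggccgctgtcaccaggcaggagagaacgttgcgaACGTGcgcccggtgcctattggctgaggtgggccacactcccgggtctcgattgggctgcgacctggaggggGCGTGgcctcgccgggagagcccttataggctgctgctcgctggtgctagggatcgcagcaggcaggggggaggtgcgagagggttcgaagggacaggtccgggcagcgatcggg
Egln3 (chr12:54203875-54204124, minus strand): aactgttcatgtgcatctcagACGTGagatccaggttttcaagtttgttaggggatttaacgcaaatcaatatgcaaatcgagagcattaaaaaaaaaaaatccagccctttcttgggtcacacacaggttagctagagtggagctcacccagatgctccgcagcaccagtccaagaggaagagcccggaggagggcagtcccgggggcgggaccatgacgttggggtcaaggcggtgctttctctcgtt
Slc2a1 (chr4:119108495-119108744, plus strand): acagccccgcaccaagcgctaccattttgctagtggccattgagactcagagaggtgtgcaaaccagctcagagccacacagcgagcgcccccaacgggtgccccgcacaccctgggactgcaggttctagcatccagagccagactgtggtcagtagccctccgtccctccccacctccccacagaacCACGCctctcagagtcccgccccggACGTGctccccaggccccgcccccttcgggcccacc
In Bnip3 the matches formed 4 groups, beginning 117, 108, 99 and 35 bases before the start, and the group at 108 is the palindrome. Those of Ddit4 began 187 and 115 bases before the start, those of Slc2a1 61 and 36, and the single one of Egln3 229. These distances are from the RefSeq start. GENCODE M21 places the starts of Bnip3 (138909519), Ddit4 (59951834) and Slc2a1 (119108711) inside the windows shown, so the distances depend on the annotation. A match is only a run of letters, and binding was not measured in these data.

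In WT cells the members were spread unevenly over the classes, and isozymes split by lineage. The share of each isozyme in the UMIs of its step is compared here; UMIs count molecules whatever the length of the gene. In the tumor, Hk2, the inducible hexokinase, made up 83.8% of hexokinase UMIs in gamma-delta T-like cells and 64.8% in dendritic-like cells, but 21.7% in regulatory T-like cells, where the housekeeping Hk1 made up 77.5%. Hk3, the hexokinase of myeloid cells, made up 60.7% in mature and 47.4% in immature neutrophil-like cells of bone marrow, and 1.19% in tumor CD4 T-like cells. Glucose transport was divided in the same way. Slc2a1 (GLUT1) took 95.4% of the UMIs of the transporter pair in tumor monocyte- or macrophage-like cells, and Slc2a3 (GLUT3) 89.2% in bone marrow mature neutrophil-like cells. Slc16a3, the lactate exporter MCT4, made up 99.9% of Slc16a1 and Slc16a3 UMIs in tumor neutrophil-like cells against 7.69% in bone marrow B precursor-like cells, which used Slc16a1 (MCT1). Between KO and WT the leading isozyme differed in few places. In tumor CD8 T-like cells Slc16a3 made up 68.7% of the lactate transporter UMIs in KO and 42.5% in WT, and Hk2 39.1% of hexokinase UMIs in KO and 25.5% in WT, where Hk1 led in both. The highest WT level of Slc16a3 in the tumor was in neutrophil-like cells, at 1353 CPM, a class of 3086 KO and 214 WT cells. Whether the Slc16a3 UMIs in CD8 T-like cells came from these cells themselves was not tested. In tumor neutrophil-like cells Slc2a1 made up 50.7% of the glucose transporter UMIs in KO and 42.3% in WT, while in bone marrow mature neutrophil-like cells it made up 10.4% and 10.8%.

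In tumor monocyte- or macrophage-like cells (4875 KO and 2266 WT cells) the hypoxia genes were higher in KO nearly throughout. Of the 8 genes, all measured, 7 were at least 1.5-fold higher and 0 lower, with a median ratio of 2.66, where 6.96% of all measured genes of the class were that much higher. The median of all genes was shifted down, by -0.21 on the log2 scale, and the sum of the 8 genes took 0.186% in KO and 0.0740% in WT of the UMIs. Vegfa stood at 439.9 CPM in KO cells against 148 CPM in WT cells, 2.98-fold higher (2.86 to 3.11). Ddit4 stood at 87.1 CPM in KO cells against 29.0 CPM in WT cells, 3.00-fold higher (2.73 to 3.30), and was the furthest of the 8. Egln3 stood at 72.7 CPM in KO cells against 25.6 CPM in WT cells, 2.84-fold higher (2.57 to 3.14). These are genes with different jobs, in vessel growth, growth control and oxygen sensing. Bnip3, which directs mitochondria to degradation, stood at 217 CPM in KO cells against 78.6 CPM in WT cells, 2.76-fold higher (2.61 to 2.93). Ero1l, which forms disulfide bonds in the endoplasmic reticulum, stood at 375 CPM in KO cells against 146 CPM in WT cells, 2.57-fold higher (2.46 to 2.68). Hif1a transcripts, the regulator itself, stood at 636 CPM in KO cells against 294 CPM in WT cells, 2.16-fold higher (2.10 to 2.23). Pdk1, which turns pyruvate away from the mitochondrion, was low in both libraries, 27.1 against 17.1 CPM, with a ratio of 1.59 (1.4 to 1.81), and Adm lower still, 2.03 against 1.71 CPM, with a ratio of 1.19 (0.772 to 1.87). S100a9, a neutrophil gene, was 3.71-fold higher (3.51 to 3.92) in the same cells, at 310.4 against 83.7 CPM. The 12 mature neutrophil markers summed to 5577 CPM in KO and 1747 CPM in WT, but not all went the same way. Of those read singly, Cxcr2 (2.40), Clec4d (2.27), G0s2 (1.91), Hdc (1.59) and Il1r2 (1.29) were higher, and Retnlg (0.639) and Csf3r (0.827) lower. Clec4d, on 60448 and 10152 UMIs, stood at 57.4% of its neutrophil-like level in KO, and Retnlg at 0.471%. The 8 monocyte markers summed to 4297 CPM in KO and 6922 CPM in WT. The 11 macrophage markers summed to 7237 CPM in KO and 4988 CPM in WT. Every marker of these lists had UMIs in both libraries, and their part in the result was not tested.

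**Figure D1:**
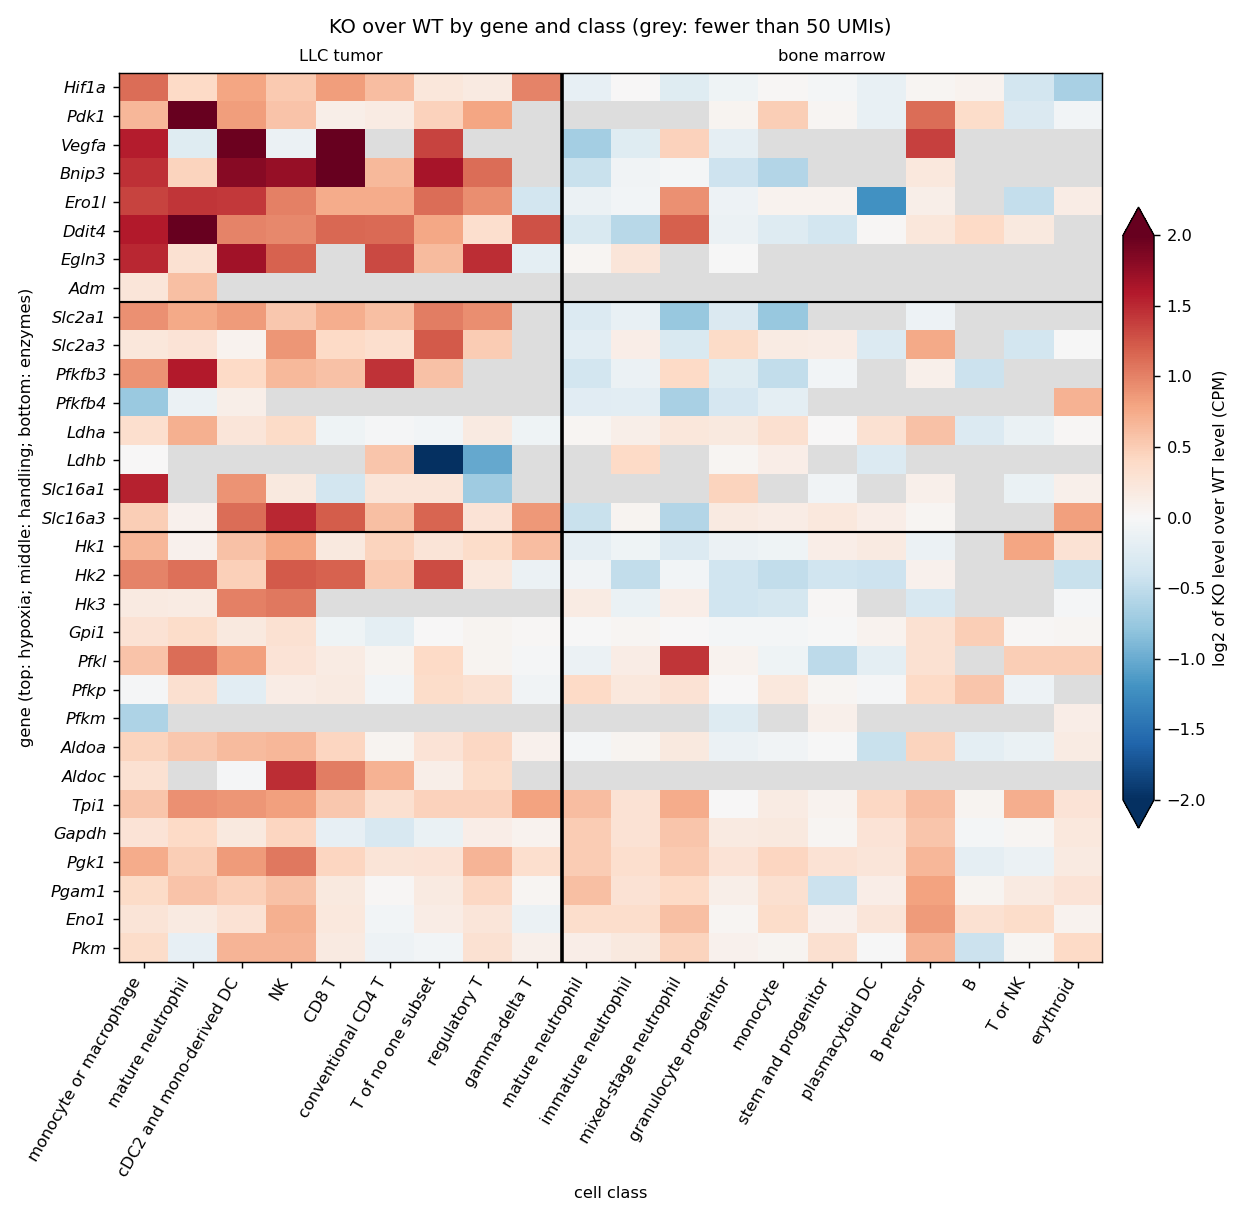
Log2 of the KO level over the WT level (color, from -2 in blue to 2 in red) for the 31 genes (rows, hypoxia genes at the top, handling genes in the middle, enzymes at the bottom) in 9 tumor and 11 bone marrow classes (columns); grey cells had fewer than 50 UMIs. Red fills most of the hypoxia rows in the tumor columns and is sparse in the same rows of the bone marrow columns.

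The enzymes of glycolysis differed less in the same cells. Of 15 measured, 3 were at least 1.5-fold higher, namely Hk1, Hk2 and Pgk1, and 1 lower, Pfkm, with a median ratio of 1.29; of all measured genes 19% were lower by that much. With ratios divided by the median ratio of all genes, 7 enzymes in place of 3 passed. Hk2 stood at 141 CPM in KO cells against 70.8 CPM in WT cells, 1.99-fold higher (1.87 to 2.12). Pgk1, which makes the first ATP of the pathway (chromosome X, 106187100 to 106203699, plus strand), stood at 1066 CPM in KO cells against 640.4 CPM in WT cells, 1.66-fold higher (1.63 to 1.70). Gapdh, the most abundant member, stood at 4253 CPM in KO cells against 3515 CPM in WT cells, 1.21-fold higher (1.2 to 1.22). The enzymes between them, Aldoa, Tpi1, Pgam1, Eno1 and Pkm, had ratios from 1.2 (Eno1) to 1.46 (Tpi1), all above 1 and under 1.5. Pfkp, 161 against 164 CPM, had a ratio of 0.983 (0.941 to 1.03), and Pfkm rested on 53 and 31 UMIs. The 15 enzymes together took 1.21% in KO and 0.934% in WT of the UMIs of the class, a ratio of 1.29 (1.29 to 1.30). Several of these enzymes, Gapdh, Aldoa, Pgk1, Pgam1, Eno1, Ldha and Tpi1 among them, have near-identical processed copies in the mouse genome, and Aldoa is listed under 2 gene identifiers that were summed here, so their absolute levels are less certain than their ratios within a tissue.

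Among the handling genes of these cells, 3 of 8 were at least 1.5-fold higher and 1 lower, where 6.96% of all measured genes were higher and 19% lower. Slc2a1 stood at 255 CPM in KO cells against 136 CPM in WT cells, 1.88-fold higher (1.80 to 1.97). Pfkfb3, whose product makes the activator of phosphofructokinase, stood at 64.8 CPM in KO cells against 34.6 CPM in WT cells, 1.87-fold higher (1.71 to 2.05). Slc16a1, which moves lactate across the membrane, stood at 34.3 CPM in KO cells against 11.8 CPM in WT cells, 2.90-fold higher (2.50 to 3.38). The sister kinase gene Pfkfb4, also known as a HIF-1 target, went the other way, 14.4 against 24.2 CPM, 0.595 (0.525 to 0.675) of the WT level. Slc16a3 and Ldha, the lactate exporter and the lactate dehydrogenase subunit of glycolytic tissue, had ratios of 1.4 (1.37 to 1.44) and 1.26 (1.24 to 1.29). Pfkfb3 was thus higher and Pfkfb4 lower within the class. With ratios divided by the median ratio of all genes, 0 members in place of 2 were lower by 1.5-fold. Pfkfb4 was past the line in 7 of its 9 alternatives, at ratios from 0.551 to 0.71.

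**Figure D2:**
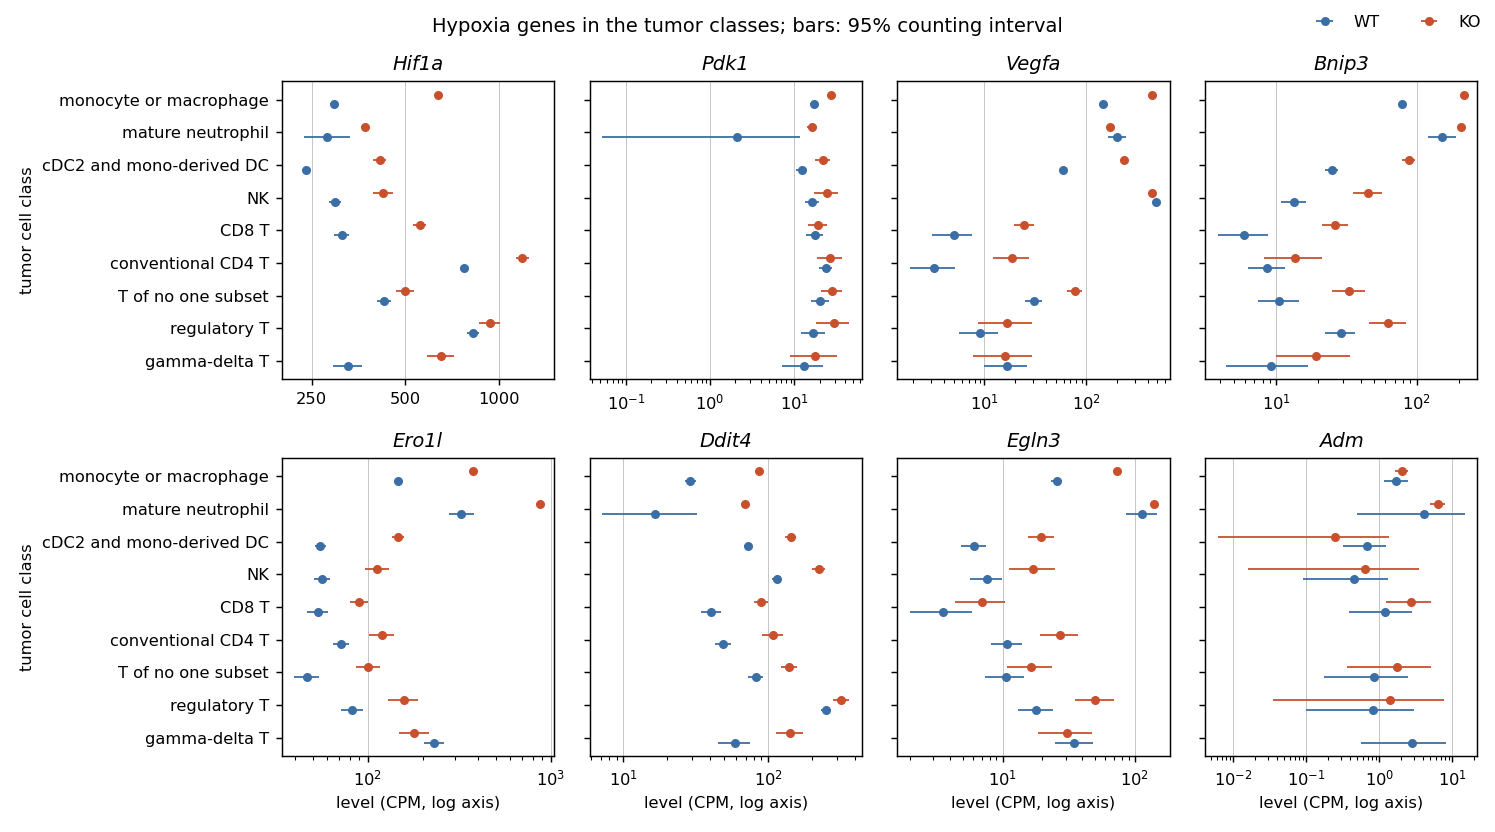
Levels of the 8 hypoxia genes (CPM, log axis, 1 panel per gene) in the 9 tumor classes (rows) for WT (blue) and KO (orange), with bars for the 95% counting interval and no point where a library had no UMI. The KO point lies to the right of the WT point in all 9 classes for Hif1a and Ddit4, and in 8 of 9 for Ero1l.

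The class is made of clusters that the libraries filled unequally: the largest KO number lay in cluster 2 (2027 KO and 78 WT cells, led by Thbs1 and Cxcl2) and the largest WT number in cluster 3 (774 and 995, led by Lyz2 and class II genes). The comparison was therefore repeated inside the 4 clusters with at least 100 cells of each library, a choice made after the cluster sizes were seen. In cluster 1 (692 KO and 311 WT cells, led by Pf4 and C1q genes) 7 of 7 measured hypoxia genes were at least 1.5-fold higher (median ratio 2.52, background 9.55%). In cluster 16 (279 and 715 cells, led by Lyz2, Plac8 and Ly6c2) 7 of 7 were (median 2.49, background 6.81%). In cluster 4 (365 and 126 cells, led by Arg1 and Hmox1) 6 of 8 were (median 1.63, background 11.6%). In cluster 3, 2 of 7 were, Vegfa and Ddit4, with a median of 1.45 and a background of 3.38%; Hif1a and Bnip3 lay just under the 1.5-fold line there, at ratios of 1.49 and 1.45. The size of the difference thus varied among the clusters while its direction did not, in these 4. Vegfa had ratios of 7.33 (6.12 to 8.85) in cluster 1, 4.61 (4.03 to 5.28) in cluster 16, 1.95 (1.83 to 2.08) in cluster 3 and 1.60 (1.4 to 1.83) in cluster 4. Ero1l had 2.68 (2.29 to 3.15), 2.47 (2.13 to 2.88), 1.05 (0.955 to 1.14) and 1.99 (1.83 to 2.16) in the same order, with an interval that includes 1 in cluster 3. Cluster 4 held the highest levels in both libraries, with Ero1l at 1558 CPM in KO cells against 784 CPM in WT cells and Slc2a1 at 790.0 CPM in KO cells against 515 CPM in WT cells.

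For the enzymes the differences inside the clusters were smaller. At least 1.5-fold higher were 2 of 14 measured enzymes in cluster 1 (with 1 lower, Aldoc, background 16.1%), 2 of 14 in cluster 3, 1 of 13 in cluster 4 and 5 of 13 in cluster 16. Their summed share was 1.81% in KO and 1.79% in WT in cluster 4, and 1.04% and 0.996% in cluster 3, ratios of 1.01 (0.990 to 1.03) and 1.04 (1.03 to 1.05). It was 1.08% and 0.897% in cluster 1 and 0.837% and 0.632% in cluster 16. Hk2 had a ratio of 2.86 (2.44 to 3.34) in cluster 16 and 1.80 (1.5 to 2.16) in cluster 1, but 1.10 (0.911 to 1.35) in cluster 4. Pgk1 followed the same order, 1.81 (1.69 to 1.93), 1.69 (1.60 to 1.79) and 1.11 (1.04 to 1.19). Cluster 2, the largest KO cluster, had an enzyme share of 1.46% in KO and 1.57% in its 78 WT cells, both above the class as a whole. With the class rebuilt from the 4 clusters alone, 8 hypoxia genes in place of 7 and 5 enzymes in place of 3 were at least 1.5-fold higher, and the summed enzyme ratio was 1.26 in place of 1.29.

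**Figure D3:**
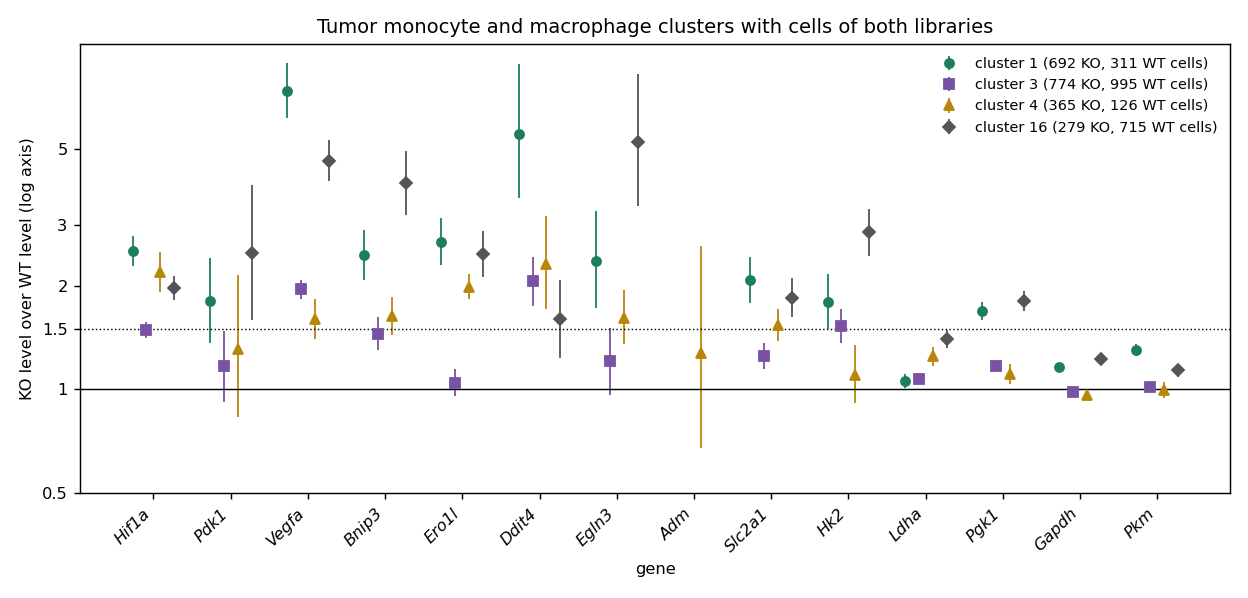
KO level over WT level (log axis) of the 8 hypoxia genes and of Slc2a1, Hk2, Ldha, Pgk1, Gapdh and Pkm in the 4 tumor monocyte- or macrophage-like clusters with at least 100 cells of each library; bars are 95% counting intervals, the dotted line marks 1.5. Vegfa lies above 1.5 in all 4 clusters, from 1.60 in cluster 4 to 7.33 in cluster 1, while Gapdh stays under 1.5 in each.

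Tumor neutrophil-like cells were few in WT (214 cells, against 3086 in KO), and their WT values rest on small counts. Of 8 hypoxia genes 4 were at least 1.5-fold higher in KO and 0 lower (median ratio 1.44), where 12.1% of all genes were higher and 37.2% lower and the median of all genes was -0.34 on the log2 scale. Ero1l stood at 873 CPM in KO cells against 326 CPM in WT cells, 2.68-fold higher (2.29 to 3.16), and this KO value was the highest of any tumor class. Ddit4 stood at 69.3 CPM in KO cells against 16.5 CPM in WT cells, on 840 and 8 UMIs, 4.2-fold higher (2.12 to 9.76). The other 2 of the 4 rest on almost no WT molecules: Pdk1 on 196 and 1 UMIs, a ratio of 7.84 (1.39 to 311), and Adm on 76 and 2 UMIs, a ratio of 1.52 (0.407 to 12.8). With doublets kept the ratio of Pdk1 was 1.69, and with thinned cells that of Adm was 0.657. Hif1a and Bnip3 had ratios of 1.32 (1.11 to 1.58) and 1.36 (1.08 to 1.73), and Vegfa, at 171 against 202 CPM, 0.846 (0.691 to 1.05). The direction of Vegfa was thus not shared between neutrophil-like and macrophage-like cells, though the interval in neutrophil-like cells includes 1. Among the enzymes 3 of 13 were at least 1.5-fold higher: Hk2 at 252 against 118 CPM (ratio 2.15, 1.65 to 2.84), Pfkl at 165 against 76.3 CPM (2.16, 1.56 to 3.08) and Tpi1 at 558 against 297 CPM (1.88, 1.59 to 2.23). Divided by the median of all genes, 9 enzymes and 7 hypoxia genes passed in place of 3 and 4. Among the handling genes 3 of 6 were higher. Pfkfb3 was 3.00-fold higher (2.17 to 4.26), at 229 against 76.3 CPM, Slc2a1 1.69-fold higher (1.39 to 2.08), at 363 against 214 CPM, and Ldha 1.63-fold higher (1.45 to 1.84), at 937 against 575 CPM. The lactate exporter Slc16a3, at 1441 against 1353 CPM, was high in both libraries, with a ratio of 1.07 (0.986 to 1.15). The enzymes summed to 0.701% in KO and 0.534% in WT (ratio 1.31, 1.26 to 1.37). The 9 T cell markers, all with UMIs in both libraries, summed to 29.3 CPM in KO and 328 CPM in WT in these cells, the 11 macrophage markers to 1833 CPM in KO and 1619 CPM in WT, and the median depth was 3804 and 2429 UMIs, values whose part in the result was not tested.

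Dendritic-like cells of the cDC2 and monocyte-derived kind (315 KO and 1475 WT cells) had 7 of 7 measured hypoxia genes at least 1.5-fold higher in KO and 0 lower, with a median ratio of 2.67 and a background of 7.69%. Vegfa stood at 233 CPM in KO cells against 59.6 CPM in WT cells, 3.91-fold higher (3.56 to 4.29). Bnip3 stood at 88.0 CPM in KO cells against 24.8 CPM in WT cells, 3.54-fold higher (3.06 to 4.11). The other 5, Egln3, Ero1l, Ddit4, Pdk1 and Hif1a, had ratios from 1.73 (Hif1a) to 3.22 (Egln3). Of the enzymes 6 of 14 were higher by that much, with a median of 1.44, and of the handling genes 3 of 7. Tpi1, at 585 against 318 CPM, had a ratio of 1.84 (1.75 to 1.94), and Pgk1, at 692 against 383 CPM, one of 1.81 (1.73 to 1.89). Slc16a3 was 2.16-fold higher (2.01 to 2.32), at 291 against 135 CPM. The enzyme count depended on the removal of doublets, barcodes that hold RNA of more than 1 cell: with doublets kept it was 2 in place of 6, and the summed enzyme ratio 1.11 in place of 1.32. With doublets kept the ratios of Egln3 and Hk3 were 1.03 and 1.19, and 5 of the hypoxia genes were above the line. S100a9 was 80.3-fold higher (61.4 to 107) in these cells, at 303 against 3.78 CPM. The 11 macrophage markers, all with UMIs in both libraries, summed to 1905 CPM in KO and 873 CPM in WT, and the 12 mature neutrophil markers, 12 with UMIs in KO and 11 in WT, to 2302 CPM in KO and 781 CPM in WT; their part in the result was not tested.

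NK-like cells (222 KO and 1668 WT cells) were the class in which the most enzymes passed, 10 of 14 at least 1.5-fold higher and 0 lower, with a median ratio of 1.62 and a background of 6.63%. Pgk1 stood at 639.9 CPM in KO cells against 307 CPM in WT cells, 2.08-fold higher (1.93 to 2.25). Hk2 stood at 68.4 CPM in KO cells against 29.1 CPM in WT cells, 2.35-fold higher (1.84 to 2.98). Eno1 stood at 998 CPM in KO cells against 610.2 CPM in WT cells, 1.64-fold higher (1.54 to 1.73). The upper, middle and lower steps of the pathway were all among the genes that passed, with Aldoa, Tpi1, Pgam1 and Pkm at ratios from 1.5 to 1.77. Hk3, named above as the hexokinase of myeloid cells, was also among the 10, at a ratio of 2.08. NK cells are known to raise glycolysis on activation, and whether these cells were activated was not tested. Gapdh, at 2929 against 2182 CPM, had a ratio of 1.34 (1.30 to 1.39), and the summed share was 0.832% in KO and 0.555% in WT (1.5, 1.47 to 1.53). Of the hypoxia genes 4 of 7 were higher by that much: Bnip3 (44.9 against 13.4 CPM, ratio 3.36, 2.43 to 4.64), Egln3 (2.26), Ero1l (2.00) and Ddit4 (1.95). Vegfa was not: at 445 CPM in KO cells against 480.1 CPM in WT cells its ratio was 0.927 (0.853 to 1.01), and NK-like cells held the highest level of any tumor class in both libraries. With each cell thinned to 2000 UMIs 20 members in place of 27 reached 50 UMIs, and the counts were 6 enzymes and 2 hypoxia genes in place of 10 and 4. Eno1 and Pgam1 then lay under the line, at ratios of 1.4 and 1.35, while the 4 hypoxia genes had ratios of at least 1.84 under each of the 8 alternatives. The KO cells were also deeper, with a median of 9948 against 5318 UMIs. The 11 macrophage markers, all with UMIs in both libraries, summed to 2434 CPM in KO and 573 CPM in WT. Of the markers read singly, Cd68 had a ratio of 1.72 on 48 and 119 UMIs, and C1qa 0.406 on 4 and 42. The sum thus does not stand for every marker of the list. The part of the depth and of these markers in the result was not tested.

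In CD8 and conventional CD4 T-like cells a larger part of the hypoxia genes than of the enzymes passed the 1.5-fold line. CD8 T-like cells (640 KO and 911 WT cells) had 5 of 6 measured hypoxia genes at least 1.5-fold higher in KO but 2 of 13 enzymes, Hk2 and Aldoc, against a background of 8.2%. Conventional CD4 T-like cells (391 and 1519) had 5 of 6 hypoxia genes but 1 of 13 enzymes, Aldoc, against 8.02%. Enzyme ratios were above 1 for 11 of 13 in the CD8 class (median 1.15) and for 8 of 13 in the CD4 class (median 1.04). Hif1a stood in CD8 T-like cells at 556 CPM in KO cells against 312 CPM in WT cells, 1.78-fold higher (1.66 to 1.91). In CD4 T-like cells it stood at 1189 CPM in KO cells against 771 CPM in WT cells, 1.54-fold higher (1.46 to 1.63), and this KO level was the highest of any tumor class. Ddit4 had ratios of 2.21 (1.83 to 2.69) in the CD8 and 2.20 (1.79 to 2.69) in the CD4 class, at 89.7 against 40.6 CPM and 108 against 49.1 CPM. Ero1l had 1.68 (1.41 to 2.01) and 1.68 (1.39 to 2.01). Bnip3 was 4.43-fold higher (2.81 to 7.22) in CD8 T-like cells, at 26.3 against 5.93 CPM on 87 and 25 UMIs, and Vegfa 4.91-fold higher (3.01 to 8.36), at 24.5 against 4.98 CPM on 81 and 21 UMIs. Gapdh went the other way, with ratios of 0.897 (0.874 to 0.920) in CD8 and 0.801 (0.773 to 0.830) in CD4 T-like cells, and Ldha had 0.939 (0.892 to 0.987) and 0.988 (0.929 to 1.05). The summed enzyme share was 0.732% in KO and 0.690% in WT in the CD8 class (1.06, 1.04 to 1.08), and 0.662% in KO and 0.718% in WT in the CD4 class (0.923, 0.902 to 0.944); the CD8 ratio was 0.996 with thinned cells and 0.974 at a cluster resolution of 2, so its direction depends on these settings. Of the handling genes 3 of 6 and 3 of 7 were higher, in both classes with Slc2a1 (1.66 and 1.52), Slc16a3 (2.32 and 1.52) and Pfkfb3 (1.51 and 2.71). With each cell thinned to 2000 UMIs fewer members reached 50 UMIs, 19 in place of 25 in the CD8 class and 22 in place of 26 in the CD4 class, and the counts were 3 hypoxia genes and 0 enzymes in the CD8 class and 3 hypoxia genes in the CD4 class. Over the 8 alternatives computed for single genes, the lowest ratio in the CD8 class was 1.91 for Hk2, 1.38 for Aldoc, which fell under the line in 2 of them, and 1.51 (Ero1l) to 3 (Vegfa) for the 5 hypoxia genes. In the CD4 class the lowest were 2.04 for both Ddit4 and Egln3, 1.55 for Ero1l, 1.47 for Bnip3, which fell under the line in 2 of the 8, and 1.46 for Hif1a, which did so in 4. Among the handling genes, Pfkfb3 was past the line in 2 of the 8 in the CD8 class, at 1.02 with thinned cells, and Slc2a1 in 4 of the 8 in the CD4 class, at 1.04 with thinned cells.

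RNA released from other cells also enters droplets. S100a9, a neutrophil gene, was read in lymphocyte-like cells as a gauge of RNA from other cells. It does not set released RNA apart from doublets or misassigned cells. S100a9 stood at 175 CPM in KO cells against 6.41 CPM in WT cells in CD8 T-like cells (27.4-fold higher, 18.6 to 41.9), at 166 against 7.31 CPM in CD4 T-like cells and at 122 against 5.80 CPM in NK-like cells. The level of a gene in lymphocyte-like cells was set beside its level in monocyte- or macrophage-like cells of the same library. For 8 myeloid genes (Lyz2, Ctss, Csf1r, C1qa, Fn1, Thbs1, Cd68 and Ms4a6c) the level in KO CD8 T-like cells was 2.09% (Fn1) to 9.45% (Ctss) of the myeloid one, and 0.509% (Thbs1) to 7.49% (Ctss) in WT. Vegfa fell in the range of its class in KO CD8 (5.56%) and CD4 T-like cells (4.22%), and whether its UMIs there came from these cells was not tested. Bnip3 stood somewhat above it in CD8 T-like cells (12.1%) and within it in CD4 T-like cells (6.24%). Leaving these aside, 4 of 5 measured hypoxia genes were at least 1.5-fold higher in the CD8 class without Vegfa, and 4 of 5 in the CD4 class without Bnip3. Ero1l (24.0% and 32.0%), Hif1a (87.4% and 187%) and Ddit4 (103% and 124%) stood well above the range in both, and Egln3 at 9.56% and 37.3%. The handling gene Slc2a1 stood at 17.8% in KO CD8 T-like cells and at 14.0%, within the range, in KO CD4 T-like cells. In NK-like cells Vegfa stood at 101% of the myeloid level in KO and 325% in WT, far above the myeloid genes. Set against neutrophil-like cells, 8 neutrophil genes in KO CD8 T-like cells stood at 0.149% (Retnlg) to 3.58% (Il1r2), among them S100a9 at 0.353% and Csf3r at 1.90%. Of the hypoxia genes, Egln3 stood at 4.97%, Ero1l at 10.3% and Hif1a at 150.2%. The handling genes Slc16a3 and Pfkfb3, counted as higher in both T-like classes, were not set beside other classes in this way. Where the UMIs of any of these genes came from was not tested.

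**Figure D4:**
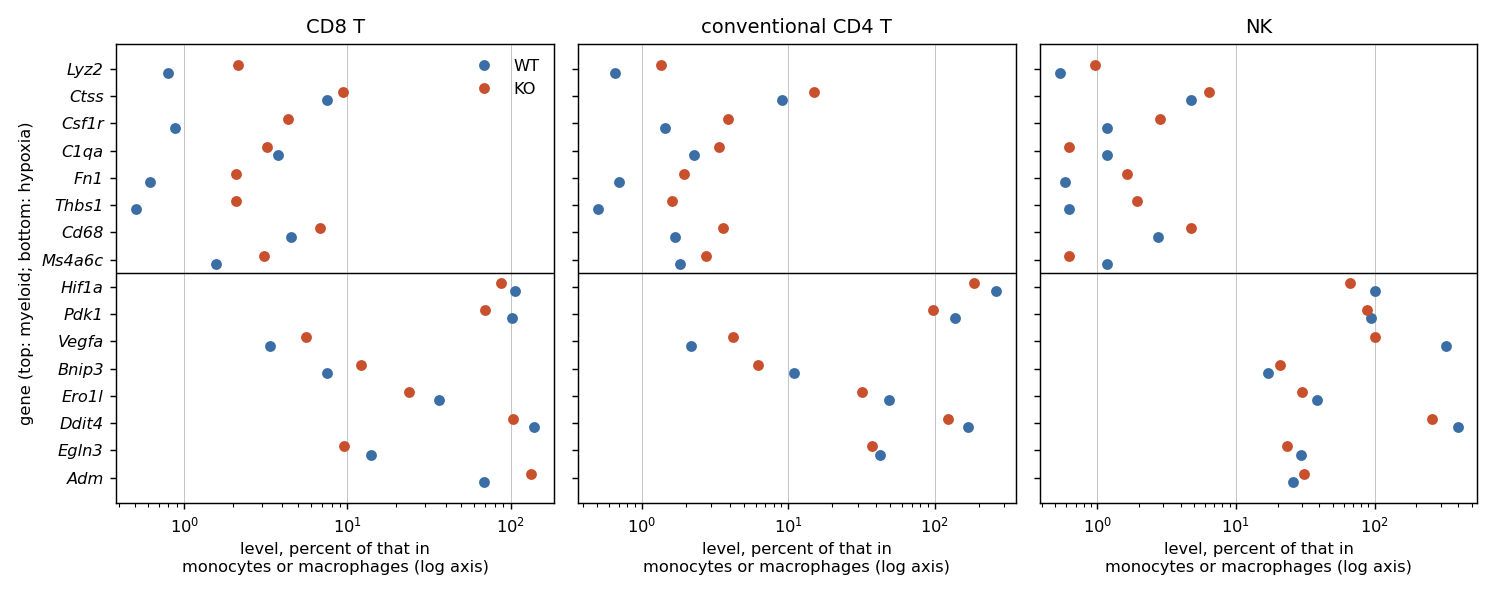
Level of 8 myeloid genes (top rows) and the 8 hypoxia genes (bottom rows) in CD8 T-like, CD4 T-like and NK-like cells of the tumor, as percent of the level in monocyte- or macrophage-like cells of the same library (log axis), for WT (blue) and KO (orange); a gene with no UMI has no point. Hif1a and Ddit4 lie near or above 66.7% in all 3 classes, while Vegfa lies among the myeloid genes in CD8 and CD4 T-like cells and near or above 101% in NK-like cells.

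The remaining T-like classes held fewer cells of the KO library. In T-like cells of clusters 7, 8 and 9, which were given no subset (204 KO and 593 WT cells), 5 of 7 hypoxia genes and 1 of 13 enzymes were at least 1.5-fold higher (background 7.45%), and 4 of 7 handling genes higher and 1 lower (background 5.31% lower). In these cells the 11 macrophage markers, all with UMIs in both libraries, summed to 3124 CPM in KO and 140.3 CPM in WT. Of those read singly, Cd68 had a ratio of 2.37 on 58 and 50 UMIs, and C1qa 1.34 on 21 and 32. The macrophage sum thus does not stand for every marker of the list. The 8 NK markers, all with UMIs in both, summed to 2429 CPM in KO and 943 CPM in WT. The 12 mature neutrophil markers, 12 with UMIs in KO and 9 in WT, summed to 527 CPM in KO and 135 CPM in WT. The part of these markers in the result was not tested. In regulatory T-like cells (156 and 618) 4 of 6 hypoxia genes and 1 of 13 enzymes were higher (background 5.9%), and of 6 handling genes 1 was higher, Slc2a1 (1.90), and 2 lower, Ldhb and Slc16a1 (background 7.35%). Regulatory T-like cells held the highest WT level of Ddit4, and its ratio there was 1.27 (1.08 to 1.48), the lowest of the 9 classes. Egln3 was 2.78-fold higher (1.74 to 4.41) in them, on 36 and 44 UMIs. In gamma-delta T-like cells (161 and 352) 2 of 4 hypoxia genes were higher (background 6.07%), Hif1a at 649 against 327 CPM, 1.99-fold higher (1.72 to 2.30), and Ddit4 at 142 against 58.9 CPM, 2.41-fold higher (1.72 to 3.37). Ero1l was lower in this class alone, at 180.3 CPM in KO cells against 232 CPM in WT cells, 0.778 (0.617 to 0.975) of the WT level.

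Read across the tumor classes, the members fell into an ordered series. Ero1l and Ddit4 were at least 1.5-fold higher in KO in 8 of 9 classes each, Bnip3 and Slc2a1 in 7 of 8 each, the CD4 class among both, Pfkfb3 in 6 of 7 and Egln3 in 6 of 8. Slc16a3 passed in 6 of 9, Hif1a and Hk2 in 5 of 9, Vegfa in 4 of 6, the CD8 class among them, Pdk1 in 4 of 8, and Tpi1 and Pgk1 in 4 of 9. Tpi1, Pgk1, Aldoa and Pgam1 had ratios above 1 in all 9 classes, but of these Aldoa passed in 2 of 9 and Pgam1 in 1 of 9. Gapdh, Gpi1 and Pfkp passed in 0 of 9, and Ldha, which is a textbook HIF-1 target, in 1 of 9, with ratios from 0.939 to 1.63. Gapdh, Gpi1, Pfkp and Ldha were therefore among the least different members, and Ero1l, Ddit4, Bnip3, Slc2a1, Pfkfb3 and Egln3 among the most. The other transporters passed in fewer classes, Slc2a3 in 2 of 8 and Slc16a1 in 2 of 7. The 9 classes come from the same pair of libraries, so they are not independent repeats of the comparison.

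The difference was also visible as the share of cells with an Ero1l UMI, with every cell thinned to 2000 UMIs and shallower cells left out. In monocyte- or macrophage-like cells the share was 31.7% (30.4 to 33.1) of 4816 KO cells and 14.1% (12.7 to 15.7) of 2193 WT cells. In neutrophil-like cells it was 46.3% (44.5 to 48.1) of 2939 and 24.0% (17.5 to 31.6) of 154. In CD8 T-like cells it was 10.1% (7.87 to 12.7) and 6.11% (4.64 to 7.88), and in NK-like cells 14.0% (9.73 to 19.3) and 6.23% (5.11 to 7.51). Without thinning the monocyte- or macrophage-like shares were 67.2% and 34.4%, and the CD8 T-like shares 28.9% and 20.6%, so the shares moved with the depth of the cells. For genes of other cell types, 15.6% of thinned KO CD8 T-like cells had a S100a9 UMI against 0.667% in WT, and 24.3% and 15.7% a UMI of the myeloid gene Lyz2. The Ero1l shares of CD8 T-like cells thus lie under the share with a Lyz2 UMI, and where these Ero1l UMIs came from was not tested. Levels relative to myeloid and neutrophil-like cells are given above.

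In bone marrow, where the mice bore no tumor, the hypoxia genes did not show this difference. Of 6 measured in mature neutrophil-like cells (3498 KO and 1467 WT cells), 0 were at least 1.5-fold higher and 1 lower, with a median ratio of 0.851 (background 7.55% higher and 8.64% lower). The lower one was Vegfa, at 18.8 CPM in KO cells against 30 CPM in WT cells, 0.626 (0.442 to 0.898) of the WT level. In immature neutrophil-like cells (2227 and 1652) 0 of 6 were higher, with a median of 0.957 (background 2.5%). Ero1l, at 218 CPM in KO cells against 227 CPM in WT cells, had a ratio of 0.959 (0.889 to 1.03) there, and Hif1a, at 69.2 against 68.8 CPM, 1.01 (0.878 to 1.15). In monocyte-like cells (650 and 577) 0 of 5 were higher and 1 lower (background 2.53% and 2.68%). The lower one was Bnip3, at 14.5 CPM in KO cells against 21.9 CPM in WT cells, 0.664 (0.449 to 0.981) of the WT level, and of the handling genes Slc2a1 was also lower, at 18.3 CPM in KO cells against 31.1 CPM in WT cells, 0.589 (0.420 to 0.823). Hif1a there had a ratio of 1.02 (0.886 to 1.18). A class of neutrophil-like cells with markers of both stages (962 and 420 cells) had 2 of 5 higher (background 9.95%), Ero1l on 182 and 27 UMIs (1.89, 1.26 to 2.95) and Ddit4 on 49 and 6 UMIs (2.29, 0.980 to 6.54). In that class the handling genes Pfkfb4 and Slc16a3 were lower, at 0.636 (0.530 to 0.766) and 0.668 (0.590 to 0.757) of the WT level (background 7.52%).

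Of the measured enzymes of marrow neutrophil-like cells, 8 of 13 in mature, 10 of 13 in immature and 11 of 13 in mixed-stage cells had a ratio above 1, and few passed the 1.5-fold line. In mature ones 2 of 13 passed, Tpi1 at 109.6 CPM in KO cells against 71.1 CPM in WT cells (1.54, 1.26 to 1.90) and Pgam1 at 244 against 162 CPM (1.51, 1.32 to 1.73), and Gapdh and Pgk1 lay just under the line at 1.43 (1.35 to 1.5) and 1.42 (1.30 to 1.55). Of the others, Hk1, Hk2, Gpi1 and Aldoa had ratios between 0.884 and 0.991, Pfkl 0.923, Hk3 and Pfkp 1.12 and 1.32, and Eno1 and Pkm 1.27 and 1.09. The count of those that passed was 5 when all UMIs, those of S100a8 in WT included, were in the total, and 0 with doublets kept. In immature ones 0 of 13 passed, with Pgk1 at 1.26 (1.2 to 1.32), Eno1 at 1.27 (1.2 to 1.35) and Gapdh at 1.22 (1.19 to 1.26), while Hk2 stood at 222 CPM in KO cells against 311 CPM in WT cells, 0.713 (0.666 to 0.764) of the WT level. In the mixed class 3 of 13 passed, Tpi1, Eno1 and Pfkl, the last at a ratio of 2.69 (1.08 to 8.67) on 48 and 5 UMIs. In monocyte-like cells 0 of 13 passed, and Hk2 stood at 178 CPM in KO cells against 249 CPM in WT cells, 0.713 (0.639 to 0.796). Summed, the enzymes took 0.590% in KO and 0.498% in WT in mature neutrophil-like cells (1.19, 1.16 to 1.22), 0.667% in KO and 0.598% in WT in immature ones (1.11, 1.10 to 1.13) and 0.483% in KO and 0.443% in WT in monocyte-like cells (1.09, 1.07 to 1.12). The 12 mature neutrophil markers, all with UMIs in both libraries, summed to 51500 CPM in KO and 70560 CPM in WT in the mature class. Their sums were 46420 and 68300 CPM in the mixed class and 8073 and 9825 CPM in the immature class, and their part in the result was not tested. Over the marrow classes Hk2 had a ratio above 1 in 1 of 9 and Slc2a1 in 0 of 6, whereas in the tumor both were above 1 in 8 of the classes in which they were measured; the tissues were counted with different software versions and are set side by side only.

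**Figure D5:**
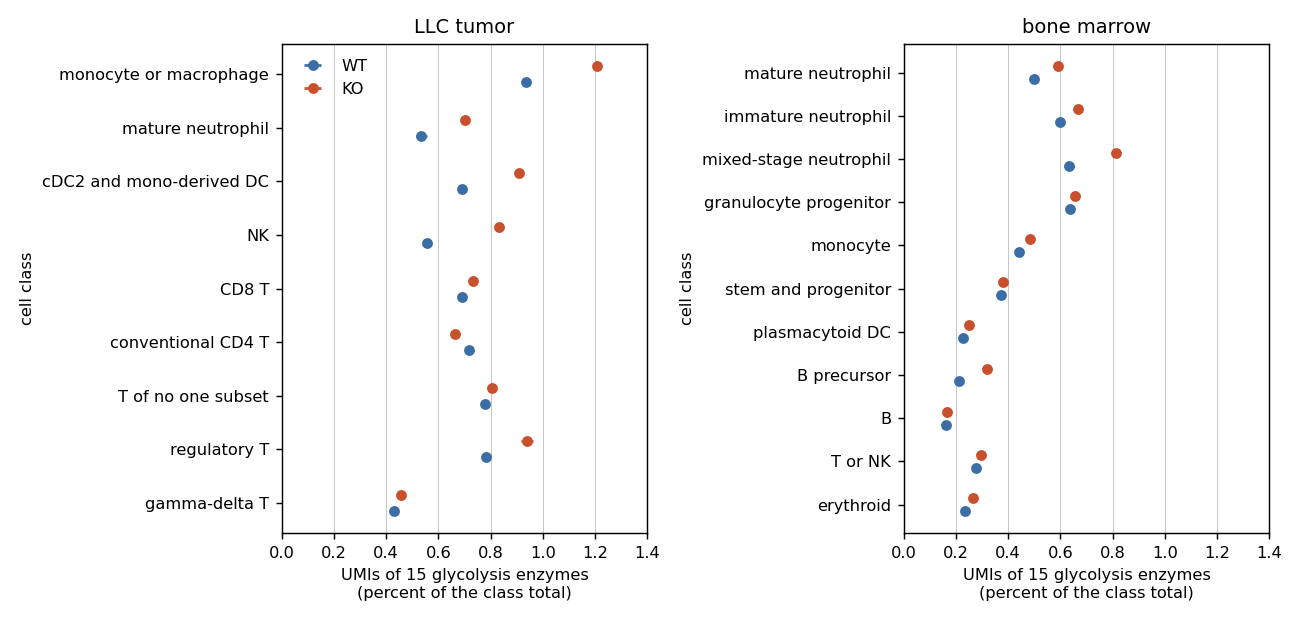
UMIs of the 15 glycolysis enzymes as percent of the class total (axis from 0) for WT (blue) and KO (orange) in the tumor (left) and bone marrow classes (right), with 95% counting intervals that are mostly narrower than the points. Tumor monocyte- or macrophage-like cells are highest in both libraries, at 1.21% and 0.934%, and CD4 T-like cells are the tumor class with the KO point furthest to the left of the WT point, at 0.662% and 0.718%.

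B precursor-like cells (441 KO and 1174 WT cells) were the marrow class with the most enzymes past the line, 5 of 13, with a median ratio of 1.37 and a background of 6.83%. Eno1 stood at 243 CPM in KO cells against 135 CPM in WT cells, 1.80-fold higher (1.57 to 2.07), and Pgam1 at 217 against 124 CPM, 1.75-fold higher (1.52 to 2.03). Of the hypoxia genes 2 of 6 passed, Vegfa on 80 and 53 UMIs (2.59, 1.80 to 3.73) and Pdk1 on 100 and 79 UMIs (2.17, 1.60 to 2.95), while Hif1a had a ratio of 1.02 (0.866 to 1.21). Dividing B precursors are known to use more glucose than small resting ones. In this class the 6 proliferation markers, all with UMIs in both libraries, summed to 4115 CPM in KO and 4499 CPM in WT. Their part in the result was not tested. The 3 clusters of the class were filled unequally: cluster 11, led by Vpreb1 and Igll1, held 164 KO and 195 WT cells, cluster 21, led by Ebf1 and Vpreb3, 187 and 675, and the cycling cluster, led by Myl4 and Top2a, 90 and 304. Within cluster 11, 0 of 12 enzymes passed upward (background 3.51%), and within cluster 21, 3 of 8 (background 5.35%), Eno1, Pgam1 and Pkm, on 28 and 53 UMIs for Eno1. The summed share was 0.398% in KO and 0.356% in WT in cluster 11 (1.12, 1.07 to 1.17) and 0.140% in KO and 0.110% in WT in cluster 21 (1.27, 1.12 to 1.45), against 1.49 (1.44 to 1.54) for the class. With cells thinned to 1000 UMIs, 13 members in place of 25 reached 50 UMIs and 2 enzymes passed in the class in place of 5, with Pdk1 at 1.29.

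In the other 6 marrow classes no hypoxia gene was at least 1.5-fold higher. The counts were 0 of 7 in granulocyte progenitor-like cells (background 2.58%), 0 of 4 in stem and progenitor-like cells (3.96%), 0 of 4 in plasmacytoid dendritic-like cells (5.98%), 0 of 3 in erythroid-like cells (2.1%), 0 of 4 in T- or NK-like cells (4.22%) and 0 of 3 in B-like cells (4.95%). In plasmacytoid dendritic-like cells 1 was lower, against a background of 4.41%, and 1 in erythroid-like cells, against 2.89%. Enzymes passed upward in T- or NK-like cells, 2 of 11, and in none of the other 5. Aldoc and Adm were measured in 0 of the 11 marrow classes.

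Neighboring pathways were read from lists of genes outside the 31. Of 20 other hypoxia-inducible genes 8 of 17 measured were at least 1.5-fold higher in KO tumor monocyte- or macrophage-like cells and 2 lower (median ratio 1.5), where 6.96% of all genes were higher and 19% lower. Hilpda, which guards lipid droplets from breakdown, stood at 1162 CPM in KO cells against 381 CPM in WT cells, 3.05-fold higher (2.97 to 3.13), Mxi1, a Myc antagonist gene, at 294 against 135 CPM (2.18, 2.09 to 2.28), and Ndrg1 at 282 against 160.1 CPM (1.76, 1.69 to 1.84). In neutrophil-like cells 6 of 13 passed (background 12.1%), Hilpda at 2890.0 against 1507 CPM (1.92, 1.78 to 2.07) among them. In dendritic-like cells 6 of 14 passed (background 7.69%), with Ndrg1 at 216 against 107 CPM (2.02, 1.85 to 2.19). In NK-like cells 4 of 12 were higher (background 6.63%) and 1 lower, with a median ratio of 1.139. The cytokine gene Mif stood at 1066 against 574 CPM there (1.86, 1.75 to 1.97). In CD8 T-like cells 4 of 13 were higher (background 8.2%) and 1 lower. The repressor gene Bhlhe40 stood at 714 against 433 CPM there (1.65, 1.55 to 1.75). In T-like cells given no subset 5 of 13 were higher (background 7.45%). Fewer were higher in CD4 T-like cells, 2 of 12 (background 8.02%), and in regulatory T-like cells, 1 of 11 (background 5.9%). In gamma-delta T-like cells 1 of 10 was higher (background 6.07%) and 1 lower. Among genes of oxygen sensing, 2 of 6 passed in monocyte- or macrophage-like cells, Egln1, the main prolyl hydroxylase for HIF-1 alpha, at 129.6 against 78.5 CPM (1.65, 1.56 to 1.75). Epas1, which encodes HIF-2 alpha, stood at 42.9 CPM in KO cells against 17.1 CPM in WT cells in CD8 T-like cells (2.51, 1.88 to 3.38). Of 7 measured genes of the pentose phosphate pathway, which draws glucose 6-phosphate away, 0 passed upward and 1 downward in monocyte- or macrophage-like cells (median 0.717), Tkt at 294 against 486 CPM, 0.606 (0.590 to 0.623) of the WT level. Of 11 genes for pyruvate entry into mitochondria 0 passed either way (median 0.861), and the median of all genes of the class was -0.21 on the log2 scale. Of 9 genes of glycogen metabolism 2 passed upward, the glycogen synthase gene Gys1 at 29.3 against 14.2 CPM (2.06, 1.79 to 2.37) and Pgm1 at 42.5 against 21.7 CPM (1.96, 1.75 to 2.19), and both passed in dendritic-like cells as well, at 2.67 (1.93 to 3.67) and 2.32 (1.84 to 2.92).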

How the data were processed

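Single-cell RNA libraries of CD45+ cells (4, each pooling 3 mice) were read from the deposited matrices of raw UMI counts per gene and barcode. Per the file headers the authors made the counts with Cell Ranger 3.1.0 for bone marrow and 6.0.2 for tumor. Version 6.1.2, Seurat 4.3.0 and mm10 appear in the submitters' processing notes. Kept barcodes had 200 or more genes and no more than 10% of UMIs from mitochondrial genes. Scrublet called doublets; where its own threshold marked under 0.5% (KO bone marrow and WT tumor), the top-scoring barcodes were dropped up to the expected rate, so 4.60% to 9.62% went per library. Clusters (scanpy 1.11.5, 2000 variable genes without the members, 30 components, 15 neighbors, Leiden resolution 1) were named from marker lists, each tissue apart. UMIs were summed per class and library, and KO over WT ratios have exact conditional binomial 95% intervals, levels Poisson intervals and shares Clopper-Pearson intervals, all for counting error only. With 1 library per group no test was possible and no p is given. Scripts were tested on simulated data. Members and lists were chosen with earlier results of these data known. All members could be named; of other lists, up to 4 genes per class with the largest ratios either way, at least 100 UMIs and at least 0.2 of the gene's highest class level. Alternatives changed scaling, thinning, filters, doublets and clustering.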

Additional observations from a re-analysis of the deposited data

Results flagged for a closer look

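Slc2a1 was 0.589 of the WT level in KO monocyte-like cells of bone marrow and 1.88-fold the WT level in KO monocyte- or macrophage-like cells of the tumor. Bnip3 was 0.664 of the WT level in the first and 2.76-fold in the second. Both were listed because the 2 tissues moved in opposite directions past the 1.5-fold line; the difference between the tissues was not tested, and with 1 library per group and tissue it cannot be. The tissues also differ in mice, software version and cell make-up.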

How the results depend on the processing

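No paired analysis was possible because each group is 1 library and the results come from no test. For single members, 89 ratios past the 1.5-fold line were recomputed, giving 727 values, of which 647 were past the line; 54 of the 89 were past it under every alternative that gave a value. Counts and ratios that moved by over 1.5 times, or beyond their counting interval, are given by setting; the cause was not tested. With cells not thinned, the KO minus WT share of cells with an Ero1l UMI, in percentage points, was 9.90 (from 2.53) in marrow immature neutrophil-like cells, 4.05 (from 1.11) in B precursor-like cells, 32.8 (from 17.6) in tumor macrophage-like cells, 31.2 (from 22.3) in tumor neutrophil-like cells, 25.1 (from 7.58) in dendritic-like cells, 27.0 (from 7.80) in NK-like cells, 8.27 (from 4.00) in CD8 T-like cells and 9.48 (from 4.8) in CD4 T-like cells. With all UMIs in the total, the count of enzymes higher was 2 (from 0) in marrow immature neutrophil-like cells, 5 (from 2) in marrow mature neutrophil-like cells and 5 (from 3) in tumor neutrophil-like cells. With all UMIs in the total, the count of hypoxia genes higher was 3 (from 5) in CD4 T-like cells. With all UMIs in the total, the count of members lower was 0 (from 1) in marrow mature neutrophil-like cells. With all UMIs in the total, the summed enzyme ratio was 1.33 (from 1.11) in marrow immature neutrophil-like cells, 1.36 (from 1.19) in marrow mature neutrophil-like cells, 1.28 (from 1.29) in tumor macrophage-like cells, 1.45 (from 1.5) in NK-like cells and 0.876 (from 0.923) in CD4 T-like cells. With ratios centred on the median of all genes, the count of enzymes higher was 7 (from 3) in tumor macrophage-like cells and 9 (from 3) in tumor neutrophil-like cells. With ratios centred on the median of all genes, the count of hypoxia genes higher was 7 (from 4) in tumor neutrophil-like cells. With ratios centred on the median of all genes, the count of members lower was 0 (from 2) in tumor macrophage-like cells. With ratios centred on the median of all genes, the summed enzyme ratio was 1.13 (from 1.11) in marrow immature neutrophil-like cells, 1.49 (from 1.29) in tumor macrophage-like cells, 1.66 (from 1.31) in tumor neutrophil-like cells, 1.37 (from 1.32) in dendritic-like cells and 1.55 (from 1.5) in NK-like cells. With a mean over cells, the count of enzymes higher was 1 (from 2) in marrow mature neutrophil-like cells and 2 (from 5) in B precursor-like cells. With a mean over cells, the count of hypoxia genes higher was 4 (from 2) in B precursor-like cells. With a mean over cells, the count of members lower was 2 (from 0) in B precursor-like cells. With a mean over cells, the summed enzyme ratio was 1.13 (from 1.11) in marrow immature neutrophil-like cells, 1.36 (from 1.49) in B precursor-like cells, 1.34 (from 1.29) in tumor macrophage-like cells, 1.30 (from 1.32) in dendritic-like cells and 1.02 (from 1.06) in CD8 T-like cells. With thinned cells, the count of enzymes higher was 2 (from 5) in B precursor-like cells, 6 (from 10) in NK-like cells and 0 (from 2) in CD8 T-like cells. With thinned cells, the count of hypoxia genes higher was 1 (from 2) in B precursor-like cells, 2 (from 4) in NK-like cells, 3 (from 5) in CD8 T-like cells and 3 (from 5) in CD4 T-like cells. With thinned cells, the count of members lower was 1 (from 2) in tumor macrophage-like cells and 1 (from 0) in dendritic-like cells. With thinned cells, the summed enzyme ratio was 1.14 (from 1.11) in marrow immature neutrophil-like cells, 1.37 (from 1.49) in B precursor-like cells, 1.35 (from 1.29) in tumor macrophage-like cells and 0.996 (from 1.06) in CD8 T-like cells. With thinned cells, the Adm ratio was 0.657 (from 1.52) in tumor neutrophil-like cells. With at least 200 UMIs per gene, the count of enzymes higher was 0 (from 2) in CD8 T-like cells and 0 (from 1) in CD4 T-like cells. With at least 200 UMIs per gene, the count of hypoxia genes higher was 0 (from 2) in B precursor-like cells, 2 (from 4) in tumor neutrophil-like cells, 2 (from 4) in NK-like cells, 3 (from 5) in CD8 T-like cells and 3 (from 5) in CD4 T-like cells. With at least 200 UMIs per gene, the count of members lower was 0 (from 1) in marrow mature neutrophil-like cells and 1 (from 2) in tumor macrophage-like cells. With no UMI filter on genes, the count of members lower was 2 (from 0) in marrow immature neutrophil-like cells, 4 (from 1) in marrow mature neutrophil-like cells, 1 (from 0) in dendritic-like cells and 1 (from 0) in CD4 T-like cells. With a 2-fold line, the count of enzymes higher was 0 (from 2) in marrow mature neutrophil-like cells, 0 (from 5) in B precursor-like cells, 0 (from 3) in tumor macrophage-like cells, 1 (from 6) in dendritic-like cells, 4 (from 10) in NK-like cells and 0 (from 1) in CD4 T-like cells. With a 2-fold line, the count of hypoxia genes higher was 4 (from 7) in dendritic-like cells, 3 (from 5) in CD8 T-like cells and 2 (from 5) in CD4 T-like cells. With a 2-fold line, the count of members lower was 0 (from 1) in marrow mature neutrophil-like cells and 0 (from 2) in tumor macrophage-like cells. With doublets kept, the count of enzymes higher was 0 (from 2) in marrow mature neutrophil-like cells, 3 (from 5) in B precursor-like cells and 2 (from 6) in dendritic-like cells. With doublets kept, the count of members lower was 0 (from 1) in marrow mature neutrophil-like cells and 1 (from 0) in dendritic-like cells. With doublets kept, the summed enzyme ratio was 1.13 (from 1.11) in marrow immature neutrophil-like cells, 1.39 (from 1.49) in B precursor-like cells, 1.2 (from 1.31) in tumor neutrophil-like cells, 1.11 (from 1.32) in dendritic-like cells, 1.46 (from 1.5) in NK-like cells and 1.09 (from 1.06) in CD8 T-like cells. With at most 5% mitochondrial UMIs, the count of enzymes higher was 1 (from 2) in marrow mature neutrophil-like cells. With at most 5% mitochondrial UMIs, the count of members lower was 0 (from 1) in marrow mature neutrophil-like cells and 1 (from 2) in tumor macrophage-like cells. With at most 5% mitochondrial UMIs, the summed enzyme ratio was 1.35 (from 1.32) in dendritic-like cells. With the members among the clustering genes, the count of enzymes higher was 0 (from 2) in marrow mature neutrophil-like cells. With the members among the clustering genes, the count of members lower was 0 (from 1) in marrow mature neutrophil-like cells and 1 (from 2) in tumor macrophage-like cells. With the members among the clustering genes, the summed enzyme ratio was 1.16 (from 1.11) in marrow immature neutrophil-like cells, 1.26 (from 1.29) in tumor macrophage-like cells and 1.37 (from 1.32) in dendritic-like cells. At a cluster resolution of 2, the count of enzymes higher was 1 (from 2) in marrow mature neutrophil-like cells and 1 (from 2) in CD8 T-like cells. At a cluster resolution of 2, the summed enzyme ratio was 1.26 (from 1.32) in dendritic-like cells and 0.974 (from 1.06) in CD8 T-like cells. In the 4 macrophage-like clusters with at least 100 cells of each library, an alternative chosen after seeing the data, the count of enzymes higher was 5 (from 3) in tumor macrophage-like cells. In the 4 macrophage-like clusters with at least 100 cells of each library, an alternative chosen after seeing the data, the count of members lower was 1 (from 2) in tumor macrophage-like cells. In the 4 macrophage-like clusters with at least 100 cells of each library, an alternative chosen after seeing the data, the summed enzyme ratio was 1.26 (from 1.29) in tumor macrophage-like cells. With thinned cells fewer members were measured, 20 in place of 27 in NK-like cells, which lowers counts by itself. Depth limits Adm, Pfkm, Aldoc, Ldhb and Pfkfb4 most by the number of classes that measured them, and in the tumor neutrophil-like class every WT value, since it holds 214 WT cells. Mouse-to-mouse spread cannot be read from pooled libraries.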

Other observations

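In tumor neutrophil-like cells the genes of the pentose phosphate pathway, which makes NADPH from glucose 6-phosphate, had 0 of 7 measured members at least 1.5-fold higher in KO and 4 lower, with a median ratio of 0.637, in a class where 37.2% of all measured genes were lower by that much. Taldo1, which encodes transaldolase, stood at 686 CPM in KO cells against 1076 CPM in WT cells (ratio 0.637, 0.583 to 0.697), on 8314 and 522 UMIs. Of the genes for pyruvate entry into mitochondria 4 of 6 were lower by that much there.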
